A study of Arvicanthis niloticus with 28 samples.

Results

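The 10 genes described here carry the unfolded protein response, and they were chosen by name from what is known of that pathway, not from their values. They are 4 chaperones and folding enzymes of the endoplasmic reticulum (Hspa5, Hsp90b1, Calr and Pdia4), the 3 stress sensors (Ern1, Eif2ak3 and Atf6) and 3 transcription factors that act below the sensors (Xbp1, Atf4 and Ddit3). All 10 stand among the 18970 genes of the deposited tables, and all 10 had enough counts to enter each test. RNA-seq measured the retinal vasculature of 28 Nile rats (Arvicanthis niloticus, a diurnal rodent that becomes diabetic on a rich diet), with 1 library per rat. The labels used here name no genotype or treatment, and no age or diet of a single rat was used. Per the methods of the study, the colony was fed a high-fiber or a high-caloric diet. Acellular capillary density counts capillaries that have lost their cells per square millimeter of retina. The 4 pre-dropout rats, all male, had densities of 17.1 to 17.9 per square millimeter, and the 24 rats in the normal range (8 male and 16 female) had densities of 5.90 to 14.5. Random blood glucose was 57.4, 443, 278 and 117 mg/dL in the pre-dropout rats T353M, T389M, T391M and T407M, and 52 to 422 mg/dL in the normal rats. Sex therefore differs between the density groups, and the changes of the 10 genes within the males are given beside those over all rats.

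The endoplasmic reticulum folds proteins that are secreted or set into membranes. BiP (Hspa5) binds unfolded chains and also holds the sensors inactive, and when unfolded protein builds up the sensors are set free. IRE1 (Ern1) then splices the Xbp1 mRNA, PERK (Eif2ak3) phosphorylates eIF2 so that general translation slows while Atf4 is translated, and ATF6 is cut in the Golgi to release a transcription factor. XBP1 and ATF6 raise chaperone genes, and ATF4 raises CHOP (Ddit3), which can lead to cell death. In the diabetic retina this response has been studied in endothelial cells, pericytes and neurons. The tables hold 1 value per gene, so the splicing of Xbp1, the phosphorylation of the sensors and the cutting of ATF6 were not measured.

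The libraries held 153111 to 10029207 expected counts, and 26 of them held at least 1000000. In 6 libraries of normal rats (T399F, T420F, T424M, T425M, T430F and T448M), 6.60% to 16.1% of the 5076 genes with a median above 30 CPM (counts per 1000000 counts of the library) lay below 1 CPM, against 0% to 3.76% in the other 22. These 6 libraries are called libraries with gaps below; they came from rats with blood glucose of 53.6 to 75.6 mg/dL, and none was from a pre-dropout rat. The defining markers of the tissue were present, with Cldn5, the tight junction protein of endothelium, at 26479 ± 10968 TPM (transcripts per 1000000; SD, n = 28) and Rgs5, a pericyte marker, at 7037 ± 3287 TPM. Sag, the arrestin of rods, was at 134 ± 177 TPM, so photoreceptor RNA was not absent. In bulk RNA of this kind, fewer cells of a type and less RNA per cell cannot be told apart.

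Calr had the highest mean level of the 10 genes. Calreticulin, a calcium-binding lectin chaperone of the endoplasmic reticulum, was at 1235 ± 672 TPM (SD, n = 28), which placed it 57th of 18970 genes by mean TPM. Hspa5 followed at 441 ± 154 TPM and Hsp90b1, which encodes the chaperone GRP94, stood at 216 ± 95.6 TPM. Atf4, the transcription factor of the PERK arm, lay between them at 338 ± 182 TPM. Calr was the highest of the 10 in each rat but T407M, where Atf4 was at 451 TPM and Calr at 420.4 TPM. TPM is per length, and the counts and TPM of the same libraries imply an effective length for Atf4 of 0.194 times that of Hspa5, so Atf4 had far fewer counts than Hspa5 at a similar TPM. Ddit3 was the other gene with a short effective length, 0.136 times that of Hspa5, and stood at 136 ± 95.8 TPM.

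The sensors were the least abundant of the 10 apart from Atf6. Xbp1 was at 74.0 ± 25.2 TPM, Atf6 at 72.9 ± 51.6 TPM, and Pdia4, a protein disulfide isomerase, at 43.7 ± 20.5 TPM. Eif2ak3 was at 15.3 ± 8.65 TPM and Ern1 at 5.85 ± 4.73 TPM, the latter 10898th of 18970 genes. The order of the genes held in single rats for some neighbours only. Calr exceeded Hspa5 in 28 of 28 rats and Pdia4 exceeded Eif2ak3 in 28 of 28, while Hspa5 exceeded Atf4 in 19 and Xbp1 exceeded Atf6 in 16. Of the remaining neighbours, Atf4 exceeded Hsp90b1 in 25 rats, Eif2ak3 exceeded Ern1 in 23, and Hsp90b1 exceeded Ddit3, Ddit3 exceeded Xbp1 and Atf6 exceeded Pdia4 in 21 each. The means of Hspa5 and Atf4, Atf4 and Hsp90b1, and Hsp90b1 and Ddit3 differed by less than the larger of their SDs. The same held for Ddit3 and Xbp1, Xbp1 and Atf6, and Atf6 and Pdia4. These SDs describe the spread between rats and cannot decide the order, because the genes were measured in the same rats. The counts of rats compare the genes within each rat. By these counts Atf4 stood above Hsp90b1 in 25 of 28 rats, but Xbp1 above Atf6 in only 16. The order itself was not tested. Together the 10 genes held 0.258% ± 0.103 of TPM, with a range of 0.102% to 0.455%.

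**Figure D1:**
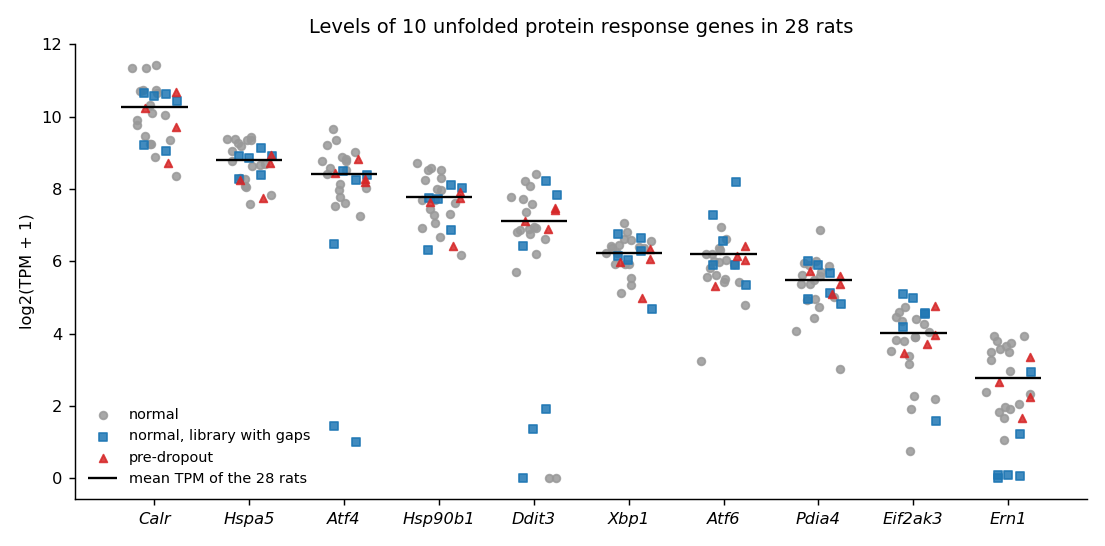
Level of each gene in each of the 28 rats, as log2(TPM + 1) on the vertical axis, with genes ordered by mean TPM and black bars at log2 of the mean TPM plus 1. Red triangles are the 4 pre-dropout rats, blue squares the 6 normal rats whose libraries have gaps and grey circles the other 18 normal rats. Atf4, Ddit3 and Ern1 fall to near 0 in single libraries. The pre-dropout rats lie inside the normal range of each gene shown, an overlap that was not counted over all genes.

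Of the 10 genes, Hspa5 varied least between rats and Ern1 most. On the CPM scale, scaled between libraries by TMM, the SD of Hspa5 over the 28 rats was 0.274 of its mean, that of Hsp90b1 0.378 and that of Xbp1 0.390. It was 0.421 for Pdia4, 0.495 for Calr, 0.501 for Atf4 and 0.573 for Eif2ak3. Ddit3, Atf6 and Ern1 were the widest, with 0.687, 0.704 and 0.779. Without the libraries with gaps, Atf6 fell to 0.398, below Pdia4 (0.442), Eif2ak3 (0.478) and Calr (0.523), while Ddit3 (0.572) and Ern1 (0.596) stayed the widest.

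Single libraries stood far from the others. Atf4 had 2 counts in T420F and 5 in T424M, 0.299 and 0.545 CPM, and between 40.6 and 209 CPM in the 22 libraries without gaps. These 2 libraries held 6552944 and 10029207 counts in all. Ern1 was listed at 0 in T448M, had 1 or 2 counts in T420F, T424M and T425M, and lay between 3.92 and 45.3 CPM in the 22 libraries without gaps. Ddit3 was listed at 0 in T424M and had 4 counts in T420F and 2 in T425M. It was also listed at 0 in T393F and T445F, which are not among the libraries with gaps; their totals allow, by counting error alone, up to 0.335 and 1.69 CPM before scaling. Atf6 went the other way, with 317 CPM in T399F, a library with gaps, against a median of 71.5 in the 28 rats, and its lowest value was 8.92 CPM in T398F. The part of the gaps in these values was not tested; values without the 6 libraries are given where they change a result.

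**Figure D2:**
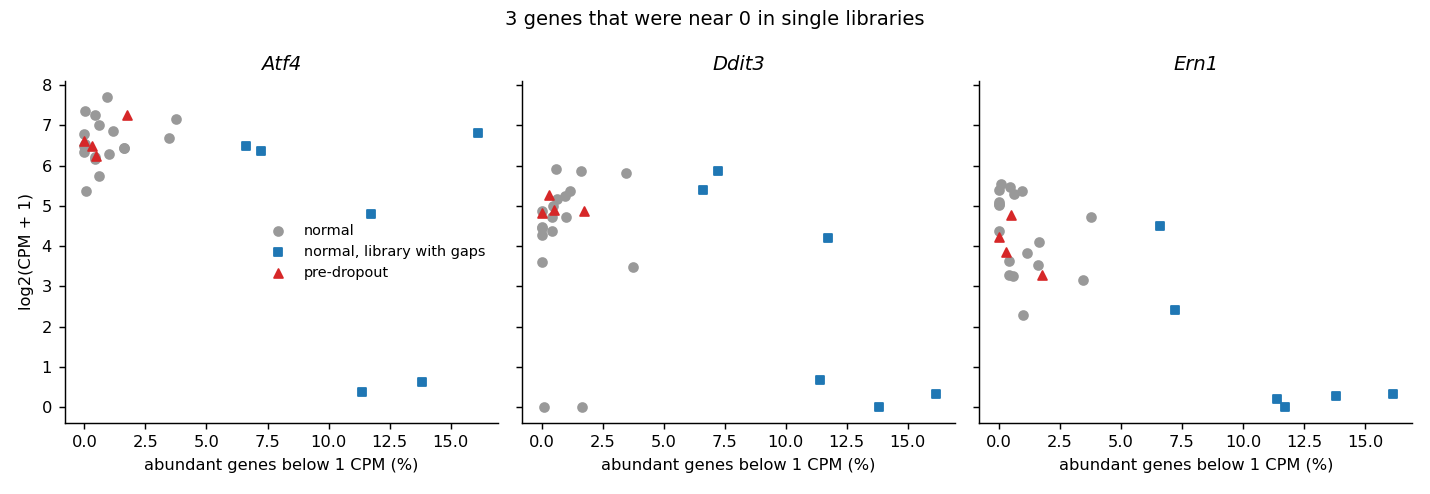
Level of Atf4, Ddit3 and Ern1 in each of the 28 rats, as log2(CPM + 1) on the vertical axis, against the percentage of the 5076 abundant genes that lay below 1 CPM in the same library. Blue squares are the 6 libraries with gaps and red triangles the pre-dropout rats; 2 values of Atf4, 3 of Ddit3 and 4 of Ern1 in the libraries with gaps lie near 0, and Ddit3 is at 0 in 2 further libraries.

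None of the 10 genes passed the test between pre-dropout and normal rats. Of the 10, 0 passed an adjusted p under 0.05 with more than 2-fold change in edgeR's quasi-likelihood test, where 0% of the 13800 genes tested passed, and 0 had an unadjusted p under 0.05. The log2 changes ran from -0.36 (Xbp1) to 0.25 (Ddit3), with 4 above 0 and 6 below, and their median was -0.20 against -0.13 over all genes tested. For each of the 10 genes, the values of all 4 pre-dropout rats lay inside the range of the normal rats. How many of all genes tested overlap in this way was not counted, so the overlap is not read as particular to the 10. Over all genes, 394 had an unadjusted p under 0.05 in edgeR, DESeq2 called 5 genes and limma-voom 4; the 10 genes were not among the calls of either tool.

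Among the chaperones, Hspa5 was at 606, 663, 443 and 375 CPM in the pre-dropout rats T353M, T389M, T391M and T407M, while normal rats lay between 358 and 906 CPM with a median of 627. Of the 4 pre-dropout rats, 1 stood above the normal median, and the highest of them was below 10 of the normal rats. The fitted ratio of pre-dropout to normal was 0.828-fold (95% interval 0.568 to 1.21, unadjusted p = 0.319, adjusted p = 0.9999), an interval that leaves out a fall below 0.568-fold and a rise above 1.21-fold. Hsp90b1, in the same order of rats, was at 828, 1185, 911 and 458 CPM, and between 383 and 1786 CPM with a median of 1013 in the normal rats. Calr stood at 1032, 2556, 1756 and 729.5 CPM, and between 548 and 3537 CPM with a median of 1701 in the normal rats. Rat T389M, which had the highest blood glucose, was the highest of the 4 for these 3 genes, and T407M the lowest. The ratios were 0.865-fold (95% interval 0.550 to 1.36) for Hsp90b1 and 0.863-fold (95% interval 0.509 to 1.46) for Calr, whose log2 change was -0.094 within the males.

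Pdia4 was the steadiest of the chaperones in the pre-dropout rats, with 106, 116, 139 and 103 CPM. All 4 values stood above the normal median of 98.7 CPM, while the normal rats spread from 21.9 to 255 CPM. The median of the 8 normal males was higher, at 141 CPM, and the sign of the change turned with it, from a log2 change of 0.054 ± 0.38 (SE) over all rats to -0.27 within the males. For Hsp90b1 the change also crossed 0, from -0.21 to 0.026 within the males, and for Hspa5 it stayed below 0 at -0.21. Leaving out T389M, the change of Calr went from -0.21 to -0.58 and that of Hsp90b1 to -0.40.

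The sensors had wide intervals. Ern1 was at 26.2, 13.4, 17.6 and 8.66 CPM in the pre-dropout rats, while normal rats lay between 0 and 45.3 CPM with a median of 14.8. Its ratio of 0.865-fold (95% interval 0.210 to 3.56) covers both a 2-fold fall and a 2-fold rise, and its log2 change turned from -0.21 to 0.42 within the males and was -0.47 without the libraries with gaps. Eif2ak3 stood at 59.0, 41.6, 26.8 and 38.5 CPM, against a normal median of 37.1 CPM and a normal range of 1.98 to 94.1 CPM. The lowest of these normal values was in T392F, a library of 1527354 counts with 3 counts of the gene. Its ratio was 1.05-fold (95% interval 0.444 to 2.49), and the sign of its log2 change turned to -0.33 within the males. Within the males without the libraries with gaps, the log2 change was 0.23 for Eif2ak3 and -0.28 for Ern1. Both then had the same sign as over all rats.

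Atf6 was at 79.7, 78.8, 44.1 and 92.7 CPM in the pre-dropout rats, and the normal rats lay between 8.92 and 317 CPM with a median of 71.3. Of the pre-dropout rats, 3 stood above the normal median although the fitted ratio was below 1, at 0.879-fold (95% interval 0.444 to 1.74). The normal mean includes the 317 CPM of T399F. Without the libraries with gaps, T399F among them, the log2 change went from -0.19 to 0.21 ± 0.38 (SE), while within the males it was -0.41 ± 0.50 (SE). None of these values passed the test.

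Of the transcription factors, Xbp1 showed the lowest ratio of the 10 genes. It was at 84.5, 130.3, 93.6 and 54.6 CPM in the pre-dropout rats, while normal rats lay between 34.9 and 216 CPM with a median of 114, so 3 of the 4 pre-dropout rats were below the normal median. The ratio was 0.777-fold (95% interval 0.458 to 1.32, unadjusted p = 0.341, adjusted p = 0.9999). Within the males, where the 8 normal rats had a median of 120.0 CPM and a lowest value of 107 CPM, the log2 change was -0.61 ± 0.41 (SE, unadjusted p = 0.148 in edgeR). There T353M, T391M and T407M lay below all 8 normal males and T389M lay inside their range. How many of all genes tested separate the males in this way was not counted, so the pattern is not read as particular to Xbp1. With limma-voom and sample weights the change over all rats was 0.082, so its direction depended on the tool.

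Atf4 was at 74.0, 88.0, 97.5 and 152 CPM in the pre-dropout rats, of which 3 stood above the normal median of 87.1 CPM, and the normal rats reached from 0.299 to 209 CPM. The ratio was 1.14-fold (95% interval 0.481 to 2.69), and it came closer to 1 without the libraries with gaps, where the log2 change was 0.049 ± 0.32 (SE). Within the males it was 0.38 ± 0.68 (SE). Ddit3 was at 28.8, 37.7, 27.1 and 28.1 CPM, close together, while the normal rats spread from 0 to 59.1 CPM with a median of 23.3. All 4 pre-dropout rats stood above that median, 6 normal rats stood above all 4 and 14 below all 4. The ratio of 1.19-fold (95% interval 0.299 to 4.73) covers both a 2-fold fall and a 2-fold rise. Its log2 change depended on the setting: it was 0.56 within the males, 0.011 within the males without the libraries with gaps, 1.27 in limma-voom and 1.37 in limma on log2(TPM + 1), and 0 of these passed the test.

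Other RNA differed between the same groups and is given beside these results. The mean log2 CPM of 4 erythrocyte markers was 6.0 ± 0.63 (SD) over 4 rats with pre-dropout and 4.67 ± 1.08 over 24 with normal density, over ranges of 5.42 to 6.77 and 2.04 to 6.22. Endothelial markers had log2 changes above 0 for 12 of 12 genes, with a median of 0.22, and photoreceptor markers for 1 of 14, with a median of -0.96; 0 markers of any list passed the test. The medians were -0.43 for pericyte and smooth muscle, -0.59 for inner retinal neuron, -0.22 for Muller glia and astrocyte and 0.27 for microglia, macrophage and plasma cell markers. Within the males, the fitted changes were above 0 for 9 of 12 endothelial markers (median 0.040), 0 of 11 photoreceptor markers (median -0.99) and 6 of 14 inner retinal neuron markers (median -0.24). The mean log2 CPM of the photoreceptor list went the other way, at 3.40 ± 1.20 (SD) in the pre-dropout rats against 2.60 ± 2.34 in the 8 normal males, and so did that of the inner retinal neuron list, at 4.23 ± 0.89 against 3.46 ± 1.78. The direction of these lists within the males thus differed between the fit and the mean log2 CPM. For the photoreceptor list, the fit within the males used 11 genes and the mean used 14. Photoreceptor means were 0.85, 1.53 and 0.98 in T424M, T425M and T448M, the normal males whose libraries have gaps. In the normal males without gaps they were 1.06 in T447M, 1.91 in T411M, 2.36 in T446M, 4.45 in T348M and 7.63 in T370M. Low means were thus not confined to the libraries with gaps. The part of the marker lists in the changes of the 10 genes was not tested.

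**Figure D3:**
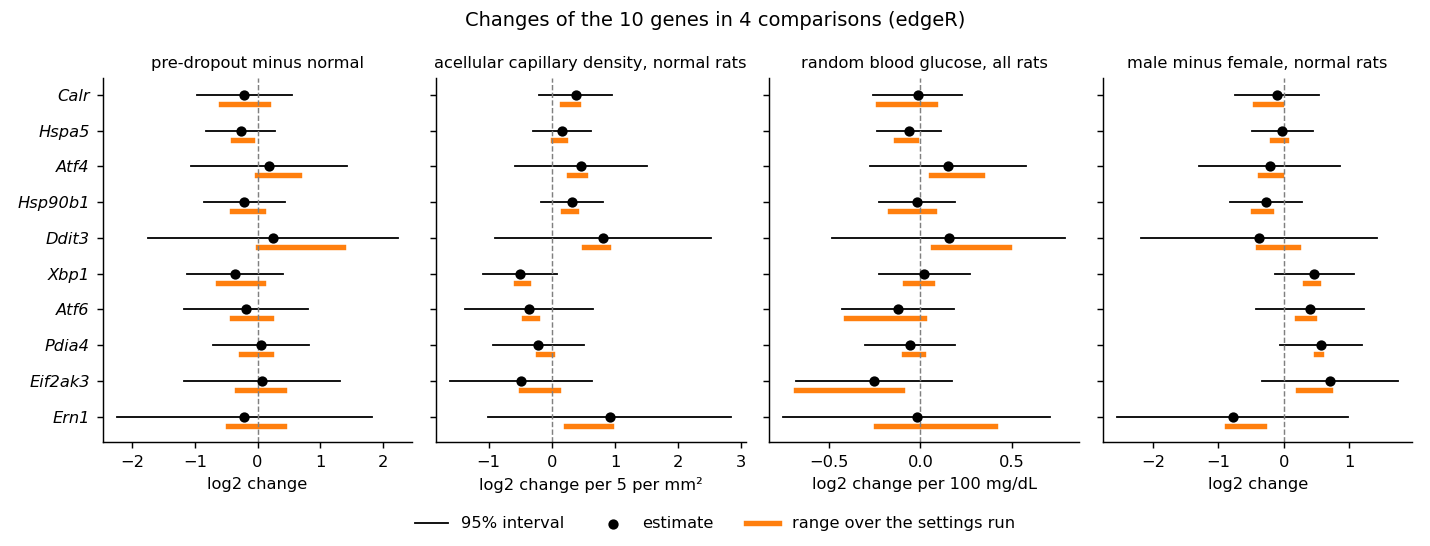
Log2 change of each gene in 4 comparisons, from left to right pre-dropout against normal rats, the slope per 5 acellular capillaries per square millimeter within the normal range, the slope per 100 mg/dL of random blood glucose and male against female normal rats. Black points and lines are the edgeR estimate and its 95% interval, and orange bars span the estimates over all settings run; every interval includes 0.

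Within the normal range, none of the 10 genes passed the test for a slope on acellular capillary density. Of the 10, 0 passed an adjusted p under 0.05 for the slope, with sex as a covariate, where 0% of 13677 genes passed; 153 genes had an unadjusted p under 0.05 and DESeq2 called 0. Chaperone slopes per 5 capillaries per square millimeter were 0.32 ± 0.24 (SE) on the log2 scale for Hsp90b1, 0.38 ± 0.28 (SE) for Calr, 0.16 ± 0.23 (SE) for Hspa5 and -0.21 ± 0.35 (SE) for Pdia4. Ern1 and Ddit3 had the steepest slopes, 0.92 ± 0.95 (SE) and 0.81 ± 0.84 (SE), and both shrank without the libraries with gaps, to 0.22 and 0.51. Atf4, Atf6 and Eif2ak3 had slopes of 0.46 ± 0.51 (SE), -0.36 ± 0.50 (SE) and -0.48 ± 0.56 (SE).

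Xbp1 had the lowest slope in this comparison, with a slope of -0.50 ± 0.29 (SE), unadjusted p = 0.0900 and adjusted p = 1 in edgeR. The slope was -0.46 without the libraries with gaps and -0.56 in libraries of at least 1000000 counts. Over all 28 rats, which adds the pre-dropout rats at the high end, it was -0.43 ± 0.18 (SE, unadjusted p = 0.0233, adjusted p = 0.9999 in edgeR). Xbp1 was thus the only one of the 10 genes with an unadjusted p under 0.05 in that setting, and it failed the adjustment over all genes. Among the markers, photoreceptor genes had slopes above 0 for 14 of 14 genes, with a median of 1.47, and endothelial genes for 2 of 12; their part in the slopes of the 10 genes was not tested.

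Blood glucose was above 200 mg/dL in 5 rats, T370M, T389M, T391M, T392F and T446M, of which T389M and T391M were pre-dropout rats. The 10 genes in these rats lay inside the range of the other 23, apart from Eif2ak3 in T392F. This overlap, too, was not counted over all genes. Hspa5 was at 618, 663, 443, 418.7 and 603 CPM in them, against between 358 and 906 CPM with a median of 636 in the other rats. Atf4 was at 92.3, 88.0, 97.5, 85.3 and 152 CPM, where the others had a median of 85.7 CPM, and Ddit3 at 21.3, 37.7, 27.1, 57.6 and 19.6 CPM, where the others had a median of 25.6 CPM. Xbp1 was at 118, 130.3, 93.6, 97.2 and 134 CPM, against a median of 112 CPM.

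As slopes over all 28 rats with sex as a covariate, 0 of the 10 genes passed an adjusted p under 0.05, where 0% of 13800 genes passed; 525 genes had an unadjusted p under 0.05, and DESeq2 called 22 genes, none of the 10. The slopes per 100 mg/dL had their narrowest intervals for the chaperones. Hspa5 had a slope of -0.061 ± 0.086 (SE) on the log2 scale, with a 95% interval of 0.850- to 1.08-fold per 100 mg/dL, and Hsp90b1, Calr and Pdia4 had -0.017 ± 0.10 (SE), -0.015 ± 0.12 (SE) and -0.057 ± 0.12 (SE). Eif2ak3 had the lowest slope, -0.25 ± 0.21 (SE) with unadjusted p = 0.238 in edgeR, and Ddit3 and Atf4 the highest, 0.15 ± 0.31 (SE) and 0.15 ± 0.21 (SE). Xbp1, Ern1 and Atf6 had slopes of 0.020 ± 0.12 (SE), -0.021 ± 0.36 (SE) and -0.12 ± 0.15 (SE). All 6 libraries with gaps came from rats of low glucose, and without them the slopes of Atf4 and Ddit3 were 0.060 and 0.066, that of Eif2ak3 -0.10, and that of Atf6 turned to 0.020. Photoreceptor markers had slopes on glucose above 0 for 14 of 14 genes, with a median of 0.45; their part and that of the gaps in the slopes of the 10 genes was not tested.

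Between male and female rats of normal density 0 of the 10 genes were called, where 0.0247% of 12162 genes (3 genes, all higher in males) were; 533 genes had an unadjusted p under 0.05 and DESeq2 called 37. Pdia4 came closest, at 139 ± 63.1 CPM in 8 males and 97.8 ± 38.6 CPM in 16 females (SD), a log2 change of 0.57 ± 0.31 (SE) with unadjusted p = 0.0743 and adjusted p = 0.995 in edgeR. Xbp1 and Eif2ak3 had log2 changes of 0.46 ± 0.30 (SE) and 0.71 ± 0.51 (SE) toward males, and Ern1 -0.78 ± 0.87 (SE). For Hspa5 the change was -0.021 ± 0.23 (SE), with a 95% interval of 0.715- to 1.36-fold. The remaining genes lay between -0.39 (Ddit3) and 0.40 (Atf6).

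The other genes of the pathway gave 0 calls in every list and comparison, in edgeR. Among 17 further chaperones and folding enzymes in the tables, 7 of 17 genes tested had a log2 change above 0 (median -0.079) between pre-dropout and normal rats, beside 41.1% of all genes tested. The 2 smallest unadjusted p belonged to Sdf2l1, a partner of BiP, at a log2 change of -2.66 ± 1.82 (SE), few counts and -4.46 without T391M, and Dnajb9, a co-chaperone that XBP1 raises, at -0.73 ± 0.54. Of the genes of degradation at the endoplasmic reticulum, 8 of 17 genes tested had a log2 change above 0 (median -0.032), and Derl1, part of the channel that exports misfolded proteins, had a log2 change of -0.68 ± 0.36 (unadjusted p = 0.0686 in edgeR). Derl1 was at 103 ± 30 CPM in the pre-dropout rats, against 165 ± 64.8 CPM in rats of normal density (SD). For the translocation machinery, 4 of 15 genes tested had a log2 change above 0 (median -0.29), with Spcs1, a signal peptidase subunit, at -0.59 ± 0.39 and Ssr4, part of the translocon, at 0.0578 CPM in pre-dropout and 2.70 CPM in normal rats and listed at 0 in 14 libraries.

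Among targets of ATF4 and CHOP, 15 of 21 genes tested had a log2 change above 0 (median 0.087). The smallest p were those of Trib3, a pseudokinase that CHOP raises, at 2.62 ± 1.42 but listed at 0 in 17 libraries, and Asns, asparagine synthetase, at -2.89 ± 1.72, at 0.831 ± 0.493 CPM in pre-dropout and 6.29 ± 6.81 CPM in normal rats (SD). These 2 targets of one program thus pointed in opposite directions, and neither passed the test. In the eIF2 list, 6 of 13 genes tested had a log2 change above 0 (median -0.036), with Eif2s1, the subunit that PERK phosphorylates, at 0.34 ± 0.39 and the amino acid sensor kinase Eif2ak4 at -0.26 ± 0.38. For the ATF6 family and its proteases, 6 of 10 genes tested had a log2 change above 0 (median 0.059), with the protease Mbtps2 at 1.10 ± 1.64 and the NF-Y subunit Nfya at -0.29 ± 0.73. In the list of IRE1 partners and death genes, 6 of 13 genes tested had a log2 change above 0 (median -0.036), with the BH3-only genes Bbc3 at 0.92 ± 1.57 and Pmaip1 at 0.24 ± 0.54. Within the males, changes were above 0 for 3 of 10 genes of the ATF6 family (median -0.081) and 3 of 13 of the eIF2 list (-0.30). The counts there were 6 of 12 for IRE1 partners and death genes (0.040) and 9 of 15 for ATF4 and CHOP targets (0.17). They were 5 of 17 for chaperones (-0.086), 8 of 16 for degradation (-0.023) and 3 of 13 for translocation (-0.35), beside 46.9% of all genes tested.

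On blood glucose, some genes of the pathway lists had an unadjusted p under 0.05 in edgeR. They were 1 of 17 genes of degradation (Derl3), 2 of 15 of translocation (Sec61b and Sec63) and 1 of 21 ATF4 or CHOP targets (Trib3). Over all genes tested, 525 of 13800 had such a p. Derl3, which acts in degradation at the endoplasmic reticulum, had a slope of 1.75 ± 0.49 (SE) per 100 mg/dL (adjusted p = 0.746 in edgeR) and was listed at 0 in 20 libraries. Sec61b, a subunit of the translocation channel, had -2.10 ± 0.69 (adjusted p = 0.866 in edgeR) and was listed at 0 in 16. Sec63, which brings BiP to that channel, was counted in every library and had a slope of -0.38 ± 0.15. Trib3 and the transcription factor Cebpb had 1.52 ± 0.75 and -1.38 ± 0.70. The chaperones Hyou1 and Dnajc3 had -0.21 ± 0.13 and -0.12 ± 0.11, the lectin Erlec1 0.12 ± 0.12, Eif2ak1 and Eif2s1 -0.71 ± 0.67 and 0.11 ± 0.13, Nfyb and Nfya -0.29 ± 0.21 and -0.31 ± 0.25, and Itpr1 and Casp12 -0.19 ± 0.13 and 0.54 ± 0.49. The list medians of these slopes lay between -0.076 and 0.019, beside 0.014 over all genes tested.

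Hspa5, Hsp90b1 and Calr rose and fell together from rat to rat, and 0 of the other 42 pairs passed the same test. Over the 28 rats, log2 CPM of Hsp90b1 and Calr correlated with r = 0.90, rho = 0.89, that of Hspa5 and Calr with r = 0.77, rho = 0.77, and that of Hspa5 and Hsp90b1 with r = 0.74, rho = 0.76 (permutation test, 100000 permutations, two-sided, adjusted p over the 45 pairs of 0.000225 for Hsp90b1 with either other gene and 0.000300 for the second, for rho). These 3 were the only pairs of the 45 with an adjusted p under 0.05 for rho. Without the 2 rats farthest from the median of the first gene, r was 0.89, 0.73 and 0.70. Within the 12 males rho was 0.93, 0.84 and 0.78, within the 16 females 0.93, 0.73 and 0.77, and without the libraries with gaps 0.91, 0.77 and 0.76. The rats spanned wide levels along this axis, with Calr at 3537, 3484 and 3296 CPM and Hsp90b1 at 1786, 1448 and 1502 CPM in T398F, T401F and T404F, and 548 and 383 CPM in T445F. All 4 are normal females.

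The median rho of the 45 pairs was 0.086, with 30 above 0, beside a median of 0.0093 and a 95th percentile of 0.46 over all pairs of 5843 genes with an average log2 CPM of at least 4. Pdia4, the other folding enzyme, had rho of 0.19 with Hspa5, 0.0027 with Hsp90b1 and 0.15 with Calr. Xbp1 ran below 0 with most of the others, with a median rho of -0.21 and 2 of 9 above 0; its rho was -0.33 with Hsp90b1 and -0.39 with Atf4 (adjusted p = 0.251 for both, permutation test). Atf4 and Ddit3, a regulator and its target, had a rho of 0.19. Their r of 0.56, like the r of 0.65 between Atf4 and Ern1 (adjusted p = 0.0119, permutation test), came with libraries where the genes were near 0. Without the libraries with gaps, rho of the same pairs was 0.043 and 0.011.

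**Figure D4:**
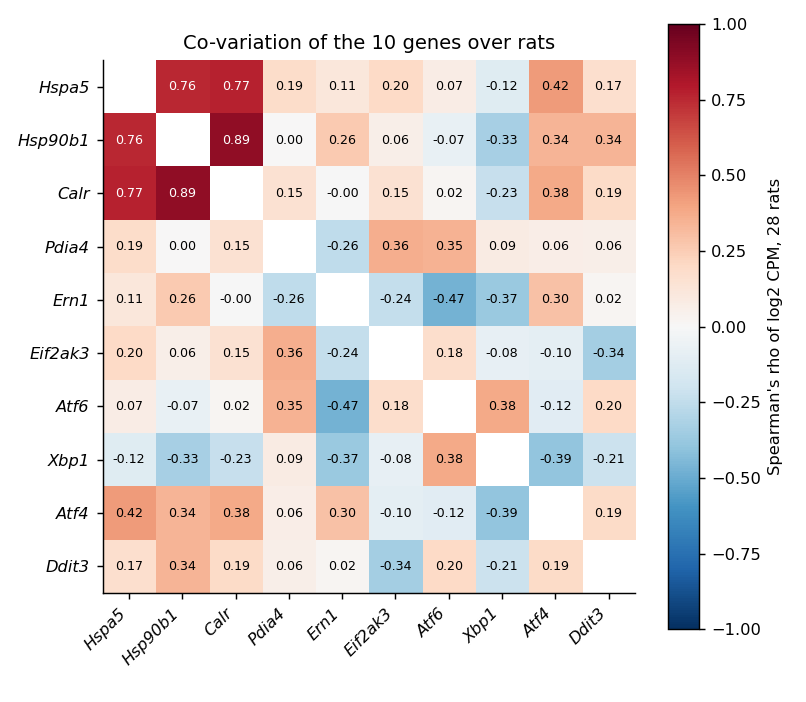
Spearman's rho between log2 CPM of each pair of the 10 genes over the 28 rats, on a color scale from -1 to 1, with the genes ordered as chaperones, sensors and transcription factors. The block of Hspa5, Hsp90b1 and Calr stands at 0.76 to 0.89, and no other pair exceeds 0.42.

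Across 5842 other genes of average log2 CPM of at least 4, the 2 genes with the highest rho to Hspa5 were Calr (0.77) and Hsp90b1 (0.76). Next came Chgb, a secretory granule protein (0.70), the RNA helicase Dhx38 (0.70) and Clstn1, a membrane protein of neurons (0.69). The likeness was not mutual to the same degree: Hspa5 ranked 34th for Calr and 38th for Hsp90b1. These 2 genes ran as close to many genes outside the pathway: after Calr, the nearest to Hsp90b1 were the RNA-binding proteins Hnrnph3 (0.88) and Hnrnpa2b1 (0.87), and Zc3h13 (0.89) stood before Hsp90b1 for Calr, followed by the cohesin subunit Smc3 (0.87). These names lie outside the rule for named genes and were picked after their values were seen. The 95th percentile of rho over all genes was 0.59 for Hsp90b1, 0.54 for Calr and 0.45 for Hspa5. For Atf4 the 5 nearest genes were Slc39a7, a zinc transporter of the secretory pathway (0.70), Tm6sf2 (0.68), Lamtor3 (0.67), Hmgn3 (0.66) and Surf6 (0.65). For Ddit3 they were Oas1g (0.64), Snx4 (0.63), Klc4 (0.63), Abcg3 (0.62) and Chid1 (0.60). None of the other 9 genes was among the 5 nearest to Atf4 or Ddit3.

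The chaperone axis also moved with other measures of the libraries. Of 90 relations of the 10 genes with depth, gaps and 7 marker lists (permutation tests over the 28 rats, adjusted over the 90), Hspa5 was lower where erythrocyte markers were higher (r = -0.68, rho = -0.66, adjusted p = 0.00315 and 0.00945). Without the 2 rats farthest from the median of the markers r was -0.64, and rho was -0.60 within the normal rats, -0.85 within the males and -0.49 within the females. For Calr and Hsp90b1 the same relation had rho of -0.46 and -0.41, with adjusted p of 0.0997 and 0.122. Hsp90b1 was higher in deeper libraries (r = 0.63, rho = 0.59, adjusted p = 0.00405 and 0.0175), and so was Calr by rho (r = 0.47, rho = 0.53, adjusted p = 0.0685 and 0.0488), while Hspa5 gave rho of 0.43 (adjusted p = 0.111). Hsp90b1 also rose with inner retinal neuron markers (r = 0.56, rho = 0.58, adjusted p = 0.0255 and 0.0194), with rho of 0.17 within the males and 0.51 within the females. What these relations contribute to the co-variation of the 3 chaperones was not tested.

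**Figure D5:**
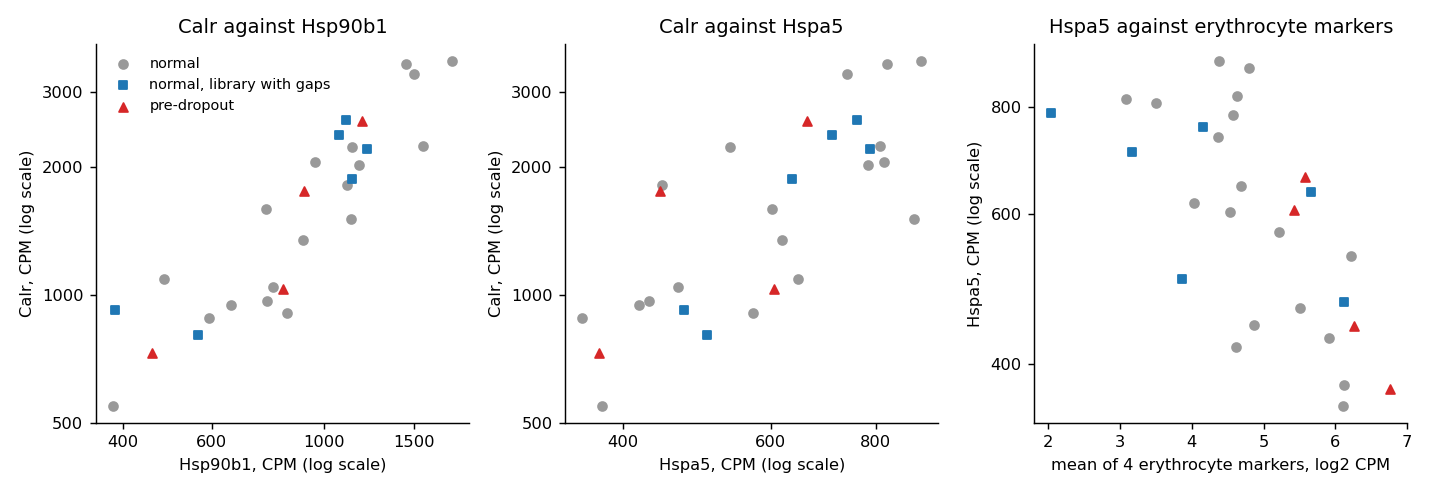
CPM of Calr against Hsp90b1 (left) and against Hspa5 (middle), and CPM of Hspa5 against the mean log2 CPM of 4 erythrocyte markers (right), with 1 point per rat and CPM on log axes. Red triangles are the 4 pre-dropout rats and blue squares the 6 libraries with gaps; the 2 pre-dropout rats with the lowest Hspa5 (T391M and T407M) are the 2 with the highest erythrocyte markers among the 4.

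Of the sensors, Atf6 rose with endothelial markers (r = 0.56, rho = 0.60, adjusted p = 0.0157 and 0.0175), with r of 0.56 without the 2 farthest rats and rho of 0.57 within the males and 0.49 within the females. Ern1 was lower in libraries with a larger share of abundant genes below 1 CPM (r = -0.87, rho = -0.67, adjusted p = 0.000900 and 0.00945), the strongest of the 90 relations by r; without the libraries with gaps rho was -0.47. It also rose with photoreceptor markers (r = 0.64, rho = 0.60, adjusted p = 0.00390 and 0.0175) and inner retinal neuron markers (r = 0.59, rho = 0.59, adjusted p = 0.0117 and 0.0175), with rho of 0.54 and 0.48 without the libraries with gaps, and was lower where endothelial markers were higher by rho but not by r (r = -0.40, rho = -0.52, adjusted p = 0.136 and 0.0488). Within each sex, rho of Ern1 with photoreceptor markers was 0.85 in males and 0.34 in females. Which cells of the preparation gave the Ern1 and Atf6 reads was not tested.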

How the data were processed

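Expected counts and TPM of 18970 genes in 28 libraries, 1 per rat, were used as the authors deposited them. The expected counts were not scaled between libraries, and TPM were scaled within each library. Each gene has a symbol and an Ensembl identifier of the mouse, from which the values were taken to be those of the comparative RNA-seq pipeline (CRSP) that the study names; its aligner and version, and how it splits reads between related genes, are not given in the sources used here, and no build or coordinates were used. CRSP assembles transcripts and assigns them to mouse genes without a genome. The study also describes values from mapping the same reads to the annotated Nile rat genome with Bowtie and RSEM; these were not analysed here, and levels may differ between the pipelines. Groups follow the density label; the unit of glucose is from the study's methods. Columns of samples left unused number 0.

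Counts were rounded and tested with the quasi-likelihood test of edgeR 4.0.16 (R 4.3.3), after TMM scaling (filterByExpr with a minimum count of 10, Benjamini-Hochberg adjustment over all genes tested). A call needed more than 2-fold change between groups and an adjusted p below 0.05; slopes needed the latter alone. EBSeq, used in the study, was not installed. Slopes and sex used the same test; slopes had sex as a covariate. Alternatives were DESeq2 1.42.0, limma 3.58.1 (voom with sample weights, or on log2 of TPM plus 1), other scalings and filters, other covariates, males only, libraries of at least 1000000 counts and each pre-dropout rat left out. Settings without the 6 libraries with gaps were chosen after seeing the data. Correlations used log2 CPM (prior count 2) in SciPy 1.17.1 and NumPy 2.4.6. The fits were also run on simulated counts with known changes. Those counts were given much less spread between libraries than these data have, so that run does not show how the tests perform here.

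Total counts ran from 153111 to 10029207 per library; a count of 0 allows up to 3 counts, and such limits cover counting error only. With 1 library per rat, p-values measure the spread between rats.

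The 10 genes, the pathway and marker lists and the tests were chosen with earlier results of these data known. Named were the 10 genes, the 2 genes of smallest p of each pathway list (group and glucose), the 5 genes nearest to Hspa5, Atf4 and Ddit3 and a few markers; 1 gene that this rule names is not reported here. Of the symbols listed, 8 (Ero1a, Ero1b, Mesd, Srp54a, Creb3, Hbb-bt, Hba-a1 and Ahsp) did not match the tables.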

Additional observations from a re-analysis of the deposited data

Results flagged for a closer look

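Among the 4 pre-dropout rats, Ddit3 in T389M stood apart at 37.7 CPM, against 28.8, 27.1 and 28.1 CPM in T353M, T391M and T407M. Its gap to the next rat was 0.842 of the range of the 4, past the 95% critical value of Dixon's test. The value lay inside the normal range and T389M had the highest blood glucose of the 28 rats. Each of the 10 genes was tested in this group, and chance flags about 5% of groups.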

How the results depend on the processing

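None of the 10 genes was called under any alternative run. Their log2 changes kept their sign in 146 of 170 alternative fits between pre-dropout and normal rats, 68 of 70 on density, 71 of 80 on glucose and 38 of 40 between the sexes. The signs that turned between pre-dropout and normal rats, as log2 changes, were these. Within the males without those libraries Calr 0.16, Hsp90b1 0.089 and Pdia4 -0.23. With sex as a covariate Hsp90b1 0.046, Pdia4 -0.27, Eif2ak3 -0.31 and Ern1 0.39. Within the males Hsp90b1 0.026, Pdia4 -0.27, Eif2ak3 -0.33 and Ern1 0.42. In limma-voom Xbp1 0.082, Atf6 0.21 and Nfya 0.19. Without the libraries with gaps Atf6 0.21 and Nfya 0.20. In limma on TPM Atf6 0.012 and Ern1 0.17. With glucose as a covariate Ern1 0.018 and Nfya 0.32. Leaving out each pre-dropout rat in turn gave Calr -0.58 to 0.066, Atf4 -0.0022 to 0.36, Hsp90b1 -0.40 to 0.045, Atf6 -0.29 to 0.0083, Pdia4 -0.0058 to 0.15, Eif2ak3 -0.11 to 0.26, Ern1 -0.45 to 0.073, Nfya -0.52 to 0.011 and Pmaip1 -0.013 to 0.63. For slopes on density, the signs that turned were Pdia4 0.011 with no covariate and Eif2ak3 0.11 without the libraries with gaps. On glucose, without the libraries with gaps Calr 0.077, Hsp90b1 0.0051 and Atf6 0.020; above 200 mg/dL against the others Calr 0.062, Hsp90b1 0.074, Xbp1 -0.082 and Ern1 0.41; with no covariate Pdia4 0.015; in the 24 normal rats Ern1 0.019. Between the sexes, in libraries of at least 1000000 counts Hspa5 0.036 and without the libraries with gaps Ddit3 0.21. The cause of these turns was not tested.

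Over all genes, calls between pre-dropout and normal rats numbered 0, against 5 in DESeq2, 4 in limma-voom and 72 with no filter on low counts. Density gave 45 with no filter, glucose 22 in DESeq2, 152 with no filter and 2 in the 24 normal rats, and sex 37 in DESeq2. The mean TPM of each gene moved by less than 1 SD in libraries of at least 1000000 counts, without mitochondrial genes and without the libraries with gaps. The median rho of the 45 pairs was 0.086, and 0.13, 0.19 and 0.17 in libraries of at least 1000000 counts, on log2 of TPM plus 1 and without the libraries with gaps. No paired analysis was possible because the labels give no replicate numbers that groups share. The 4 pre-dropout rats and a common biological coefficient of variation of 1.32 over all genes limit what the tests can show, and low counts limit Ern1, Ddit3 and Eif2ak3 most.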

Other observations

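The genes whose levels ran closest to Xbp1, Pdia4, Atf6, Ern1 and Eif2ak3 over the 28 rats, picked after their values were seen and given with Spearman's rho as a description, differed from member to member. Closest to Xbp1 were Pgm2l1, which makes glucose 1,6-bisphosphate, at 0.75 (0.76 without the libraries with gaps) and Slc3a2, the heavy chain of amino acid transporters and a gene of the ATF4 target list, at 0.73 (0.84 without the libraries with gaps). The gene closest to Pdia4 was Erp29, another folding protein of the endoplasmic reticulum, at 0.60 (0.53 without the libraries with gaps). Atf6 ran closest to the nuclear receptor Nr1h3 at 0.77 (0.79 without the libraries with gaps) and to Esam, an adhesion molecule of endothelium that is also in the endothelial marker list, at 0.71 (0.70 without the libraries with gaps). Ern1 ran closest to the ubiquitin factor Ube4b at 0.77 (0.65 without the libraries with gaps) and to Rgs9, a signaling regulator of photoreceptors, at 0.75 (0.72 without the libraries with gaps). Eif2ak3 ran closest to Atp6v1c1, a subunit of the proton pump of acidic organelles, at 0.73 (0.72 without the libraries with gaps). With 5842 genes searched for each member, a high rho for the nearest gene is built into the choice.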
